A study of Mus musculus with 18 samples.

Results

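Fa2h encodes fatty acid 2-hydroxylase, the enzyme that adds a hydroxyl group to the fatty acid from which 2-hydroxylated sphingolipids are built. It is described here together with 9 other genes of sphingolipid synthesis, namely the ceramide synthase genes Cers1, Cers2, Cers4, Cers5 and Cers6, the desaturase gene Degs1, and the genes Sgms1, Ugcg and Ugt8a, whose enzymes use ceramide. These 10 genes, of 55414 in the deposited counts, were listed by symbol and matched to Ensembl identifiers. The list was drawn up because Fa2h was low after both knockdowns (KDs), so the levels of Fa2h against Scramble KD are given as a description and without a test. Of the 10 genes, 9 had enough counts to be tested, and Ugt8a did not.

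The counts came from N2A (Neuro-2a) cells, a mouse neuroblastoma line obtained from ATCC, that were transfected with 1 of 6 siRNAs and harvested for RNA 72 h later. A Scramble siRNA A or B (Scramble KD, the control), an Fmr1 siRNA A or B (Fmr1 KD, depleting the mRNA of FMRP) or a Zfp598 siRNA A or B (Zfp598 KD, depleting an early factor of no-go mRNA decay) was used. Each siRNA had 3 libraries, which gives 6 libraries per condition and 18 in all. No genotype was altered, every culture received an siRNA and transfection reagent, and total RNA was depleted of rRNA before sequencing. The letters A and B only number the 2 siRNAs of a target, so siRNA A of one target has no known tie to siRNA A of another. The labels give no more than a number for the 3 libraries of an siRNA, so the p-values measure the spread between these libraries.

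Ceramide, the core of all sphingolipids, forms when a ceramide synthase attaches a fatty acid to a sphingoid base and DEGS1 then inserts the double bond of the mature lipid. The ceramide synthases differ in the length of the fatty acid they prefer, with CERS2 favouring very long chains, CERS1 and CERS4 intermediate ones, and CERS5 and CERS6 palmitate. Ceramide is turned into sphingomyelin by SGMS1, into glucosylceramide by UGCG and into galactosylceramide by UGT8, and FA2H supplies the hydroxylated fatty acids that are abundant in the galactosylceramide and sulfatide of myelin. Oligodendrocytes and Schwann cells are therefore known for high FA2H and UGT8, whereas neurons are rich in gangliosides made from glucosylceramide.

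Total counts were 12151589 to 15414590 per library in Scramble KD, 13213653 to 14005697 in Fmr1 KD and, in Zfp598 KD, 7674724 to 13360908. The most counted feature, which the annotation does not list, held 5.00% to 11.1% of the counts in Scramble KD, and its largest shares were 15.2% and 25.8% in Zfp598 KD siRNA A replicates 2 and 3. The siRNA targets were lower in all libraries of their KD, Fmr1 at 15.7 to 27.5 CPM (counts scaled to a common library size) against 51.1 to 68.7 in Scramble KD, and Zfp598 at 32.2 to 48.7 against 103 to 128. Neuronal and neuroblastoma markers were present, such as Tubb3 at 302 to 543 CPM and Hand2 at 166 to 473 CPM. The 18 markers of myelinating glia summed to 135.0 to 203 CPM, mostly Pmp22, Cnp, Mbp and Bcas1, while Olig1 had 0 counts in all 18 libraries and Mag, Cldn11 and Mal each in 17. Fibroblast markers summed to at most 19.1 CPM over 7 genes. One library, Fmr1 KD siRNA B replicate 1, stood apart with 30.8 CPM summed over 8 pluripotency markers, against at most 1.18 CPM in any other library.

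Fa2h was a weakly counted gene whose level in every KD library lay below that in every Scramble library. It lies on the reverse strand of chromosome 8 of GRCm39 from 112071767 to 112120465 and is protein-coding, with 3017 bases of exon. With Scramble siRNA A it had 3.96, 2.98 and 2.62 CPM in replicates 1 to 3 (45, 45 and 37 counts). With Scramble siRNA B it had 4.28, 4.89 and 7.74 CPM (65, 67 and 121 counts). All 3 siRNA B libraries were thus above all 3 siRNA A libraries, and replicate 3 of siRNA B was the highest of all 18. How many of all genes separate single siRNAs in this way was not counted, so such separations, here and below, are a description. With Fmr1 siRNA A the level was 1.08, 1.43 and 2.07 CPM, and with Fmr1 siRNA B it was 0.675, 0.350 and 0.412 CPM (10, 5 and 6 counts). With Zfp598 siRNA A the level was 0.752, 1.07 and 1.78 CPM, from 10 counts in each library, and with Zfp598 siRNA B it was 0.670, 0.719 and 1.11 CPM (9, 9 and 13 counts). The lowest Scramble library, at 2.62 CPM, stood above the highest library of Fmr1 KD (2.07 CPM) and of Zfp598 KD (1.78 CPM). Over all genes tested, 5.98% had no overlap of this kind in Fmr1 KD and 1.87% had none in Zfp598 KD, and since Fa2h was chosen for this difference nothing further is read from it. In bulk RNA, fewer cells that express a gene and less RNA per cell cannot be told apart.

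**Figure D1:**
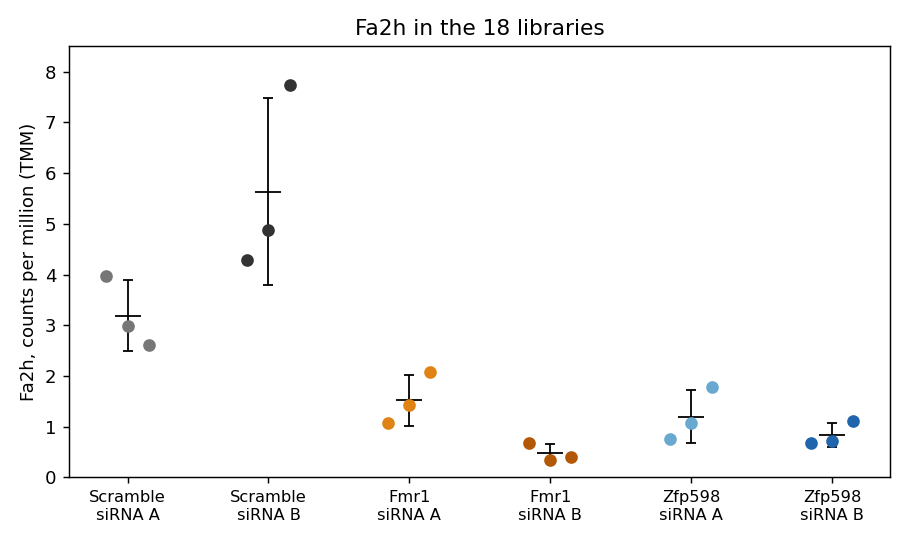
CPM of Fa2h (vertical axis, scaled to the library size by the TMM method) in each of the 18 libraries, grouped by siRNA along the horizontal axis. Points are libraries, the horizontal dash is the mean and the bars are ± 1 SD (n = 3). The 6 Scramble libraries sit between 2.62 and 7.74 CPM, all above the 12 KD libraries.

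Pooled over both siRNAs, Fa2h was 4.40-fold lower in Fmr1 KD and 4.59-fold lower in Zfp598 KD, each against the same 6 Scramble libraries. Set against the Scramble siRNA of the same letter, the log2 fold change was -1.06 (SE 0.323) for Fmr1 siRNA A, -3.53 (SE 0.365) for Fmr1 siRNA B, -1.52 (SE 0.369) for Zfp598 siRNA A and -2.76 (SE 0.344) for Zfp598 siRNA B. Part of that spread came from the Scramble arm, because the higher Scramble B level enlarges the change of both B siRNAs. With all 6 Scramble libraries as the reference, the values drew closer, to -1.47, -3.11, -1.94 and -2.34. All 4 siRNAs gave a lower level under both references.

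How far Fa2h depended on the siRNA within a target was tested apart from the comparison with Scramble KD that chose it. The steepest step was between the Fmr1 siRNAs, where siRNA B gave 0.479 ± 0.172 CPM (SD, n = 3) and siRNA A 1.53 ± 0.503 CPM. This log2 difference of -1.64 (SE 0.415) passed edgeR's quasi-likelihood test (adjusted p = 0.00586 over all 17901 genes tested). Every siRNA B library was below every siRNA A library. Of all genes tested, 24.3% passed between these 2 siRNAs. The Fmr1 mRNA itself was higher with siRNA B (26.5 CPM) than with siRNA A (18.2 CPM). Its log2 difference of 0.55 passed (adjusted p = 0.00227, edgeR's quasi-likelihood test). Against the Scramble siRNA of the same letter, the log2 fold change of the Fmr1 mRNA was -1.30 with siRNA B and -1.60 with siRNA A. This difference in KD effect did not pass (0.30, adjusted p = 0.220, edgeR's interaction test). A link between the Fa2h level and the loss of Fmr1 mRNA was not tested. Between the Zfp598 siRNAs the Fa2h level was 0.832 ± 0.239 CPM with siRNA B and 1.20 ± 0.526 CPM with siRNA A, and the ranges overlapped. The log2 difference of -0.41 (SE 0.441) did not pass (adjusted p = 0.509, edgeR's quasi-likelihood test), and without Zfp598 siRNA A replicates 2 and 3 it was 0.15.

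The Scramble siRNAs also differed in Fa2h. The log2 difference of siRNA B from siRNA A was 0.83 (SE 0.286, adjusted p = 0.0412 by edgeR's quasi-likelihood test), from 5.63 ± 1.84 CPM against 3.19 ± 0.696 CPM (SD, n = 3). This call was narrow. DESeq2 gave an adjusted p of 0.0684, and it was lost without any one of Scramble siRNA A replicates 2 and 3, Scramble siRNA B replicates 2 and 3, Fmr1 siRNA A replicate 2 or Zfp598 siRNA B replicate 2 (log2 difference 0.52 without Scramble siRNA B replicate 3). The KD effect with siRNA B minus that with siRNA A was -2.47 on the log2 scale in the Fmr1 arm (SE 0.504, adjusted p = 0.00121, edgeR's quasi-likelihood test of the interaction). In the Zfp598 arm the same quantity was -1.24 (SE 0.528, adjusted p = 0.102 by the same edgeR test). Directly between the KDs, with no Scramble library in the difference, Fmr1 KD and Zfp598 KD had 1.00 ± 0.665 and 1.02 ± 0.417 CPM (SD, n = 6). The log2 difference was 0.06 (SE 0.409), given without a test because Fa2h was chosen for a low level in both.

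From highest to lowest, the 6 siRNAs ranked Scramble B, Scramble A, Fmr1 A, Zfp598 A, Zfp598 B and Fmr1 B in mean Fa2h level. The first 2 steps in this order, down to Fmr1 siRNA A, were between groups with no overlapping libraries. Below that, each group overlapped its next neighbour, so the order of the lower 4 siRNAs is not resolved library by library.

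The genes beside Fa2h were looked at next. Within 200 kb of either end the annotation lists 10 other genes, of which 6 were tested. These were Mlkl, Rfwd3, Glg1 and 9430091E24Rik on the side of lower coordinates and Wdr59 and Znrf1 on the other. By edgeR's quasi-likelihood test and by DESeq2, 0 of the 6 passed in either KD. Of all genes, 6.54% passed in Fmr1 KD and 1.96% in Zfp598 KD by the edgeR test, and 9.61% and 5.80% by DESeq2. With shares this low, 0 of 6 does not set these genes apart from others. Their log2 fold changes spanned -0.09 to 0.31 for Fmr1 KD, and for Zfp598 KD the span was -0.25 to 0.25.

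Across the 18 libraries, the gene whose log2 CPM followed Fa2h most closely was Ddit3, which encodes the stress-induced transcription factor CHOP (Pearson r = 0.92). Its mean level was 111.6 and 142.7 CPM with Scramble siRNAs A and B, 95.2 and 40.9 CPM with Fmr1 siRNAs A and B, and 76.3 and 66.6 CPM with Zfp598 siRNAs A and B. Ddit3 was thus lowest where Fa2h was lowest, with Fmr1 siRNA B. The next 4 genes were Gm45838 (0.90), Agap1 (0.90), Vgf (0.89), which encodes a neuropeptide precursor, and Xrcc6 (0.88), which encodes a subunit of the Ku DNA repair complex. At the opposite end stood Hsd17b11 (-0.92), Fbn1 (-0.90), which encodes the matrix protein fibrillin, Garnl3 (-0.90), Chst15 (-0.88) and Stox2 (-0.87). These coefficients describe 18 libraries that share 6 siRNAs and were the extremes of 17900 genes, and no test was attached. Fa2h was chosen for its fall in both KDs, so the order, also among the members, favours genes that fell in both. The 5 closest genes had log2 fold changes of -1.08 to -0.31 in the 2 KDs, and the 5 at the opposite end had 0.32 to 1.56. By Spearman rank only Ddit3 and Agap1 of the 5 closest stayed in that place. Among the members, Sgms1 came closest to Fa2h (r = 0.80), and the other 7 lay between -0.29 and 0.29.

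Per kilobase of exon, Fa2h was the lowest of the 9 tested members in Scramble KD, at 1.46 ± 0.607 CPM per kilobase (SD, n = 6). Cers5 was the highest (26.6 ± 2.49), followed by Degs1 (18.6 ± 2.33), Cers2 (12.4 ± 2.23) and Ugcg (10.7 ± 3.45). Cers1 (6.24 ± 0.795), Cers4 (5.77 ± 0.758), Cers6 (4.09 ± 0.371) and Sgms1 (3.57 ± 0.103) lay between. Among neighbours in this order, the ranges over the 6 libraries did not overlap between Cers5 and Degs1, Degs1 and Cers2, Cers4 and Cers6, or Sgms1 and Fa2h. They overlapped between Cers2 and Ugcg, Ugcg and Cers1, Cers1 and Cers4, and Cers6 and Sgms1. Exon length in this measure is the union of all annotated exons, and with the longest transcript instead Sgms1 moved from rank 8 to rank 5.

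Several members share exon sequence with other genes, which bears on their counts because neither the strand setting nor the handling of shared bases was stated. Cers1 shares 68.5% of its exon bases with Gdf1 on the same strand, a gene with 0 counts in all 18 libraries, and 10.8% with Upf1 on the other strand. Cers2 shares 25.4% with Setdb1 on the other strand, and Sgms1 shares 7.62% with the antisense transcript Sgms1os1. Cers4 shares 6.48% with Vmn2r-ps89 on the other strand. Values for these 4 genes are therefore uncertain to that extent. If reads on the bases shared with Gdf1 were left uncounted, the level of Cers1 per kilobase is understated, and its place in the order above is too low.

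Promoter windows, from 250 bases before to 50 bases after a gene start, were found in the RefSeq table for 9 of the 10 members (13 windows), all but Fa2h. Those of 3 members, Cers2 (1 of its 2 windows), Cers6 and Degs1, hold the E-box CACGTG, which reads the same on both strands, and no window of the other members with an entry does. The motif occurs in 7.15% of all 32851 windows of this length. It was chosen after these sequences had been read, and a match is a description of the letters and not evidence of a bound factor. The 3 stretches are shown because they are the member windows that hold the motif, each 56 bases long on the strand of the gene and with the motif in capitals. They are from GRCm38.p6, at chr3:95315036-95315091 (forward), chr2:68861394-68861449 (forward) and chr1:182282208-182282263 (reverse) in the order given.
Cers2: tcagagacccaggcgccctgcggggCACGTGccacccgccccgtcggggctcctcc
Cers6: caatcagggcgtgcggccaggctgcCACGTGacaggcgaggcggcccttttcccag
Degs1: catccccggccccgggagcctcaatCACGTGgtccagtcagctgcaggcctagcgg
The motif begins 129 bases before the gene start in Cers2, 22 bases before it in Cers6 and 43 bases before it in Degs1.

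With both siRNAs of a target pooled, the other members moved little. Of the 8 tested, 1 passed in Fmr1 KD, Sgms1, which fell. Of all genes tested, 6.54% passed in that comparison (2.73% higher and 3.80% lower). In Zfp598 KD 0 of the 8 passed by edgeR's quasi-likelihood test and by DESeq2, where 1.96% of all genes passed by the edgeR test (0.916% higher and 1.04% lower). At an unadjusted p under 0.05 there were 2 of the 8, Cers2 and Sgms1, and 18.1% of all genes. With a change of more than 2-fold also required, 0 of the 8 passed in either KD, where 1.00% and 0.464% of all genes did. The median log2 fold change of the 8 was -0.18 in Fmr1 KD and -0.05 in Zfp598 KD, against medians over all genes of 0.00 and 0.01. Between the KDs 0 of the 8 passed by edgeR's quasi-likelihood test, where 5.39% of all genes passed (2.27% higher and 3.11% lower in Fmr1 KD). At an unadjusted p under 0.05 there was 1 of the 8, and 20.9% of all genes. The largest difference was that of Degs1 (log2 0.42, SE 0.139, adjusted p = 0.0785 by the edgeR test and 0.0498 by DESeq2).

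Sgms1, which encodes the sphingomyelin synthase of the Golgi, varied little within a condition. Its level in Scramble KD was 65.6, 67.4 and 70.2 CPM with siRNA A and 64.4, 67.1 and 67.0 CPM with siRNA B. With the Fmr1 siRNAs it was 56.4, 61.4 and 56.3 CPM (A) and 52.3, 53.9 and 52.8 CPM (B). With the Zfp598 siRNAs it was 58.6, 55.7 and 64.2 CPM (A) and 62.5, 58.6 and 56.6 CPM (B). No library of either KD reached the lowest Scramble library, although Zfp598 siRNA A replicate 3 came close, at 64.2 against 64.4 CPM. Of all genes, 5.98% showed such a lack of overlap after Fmr1 KD and 1.87% did after Zfp598 KD. Sgms1 was 1.21-fold lower in Fmr1 KD (log2 -0.27, SE 0.0730, adjusted p = 0.0302 by edgeR's quasi-likelihood test). In Zfp598 KD the log2 fold change was -0.17 (SE 0.0732, adjusted p = 0.209, the same edgeR test).

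Both Fmr1 siRNAs lowered Sgms1 against the Scramble siRNA of the same letter, by a log2 value of -0.22 for siRNA A (adjusted p = 0.0394) and -0.32 for siRNA B (adjusted p = 0.00451, both by edgeR's quasi-likelihood test). With siRNA B the call held with each library left out in turn, and with siRNA A it was lost without any one of Fmr1 siRNA A replicates 1 and 3 or the 3 Scramble siRNA A replicates. The pooled call was lost without any one of Fmr1 siRNA A replicates 1 and 3, the 3 Fmr1 siRNA B replicates, Scramble siRNA A replicates 2 and 3 or the 3 Scramble siRNA B replicates, with an adjusted p of at most 0.0677 (edgeR's quasi-likelihood test). The pooled call was also lost with no filter on low counts (adjusted p = 0.119) and with the replicate block (0.0504, both by edgeR's test). DESeq2 gave an adjusted p of 0.000335. With counts summed per siRNA the adjusted p was 0.999 by edgeR's test. In that setting 0.00% of all 22167 genes tested passed, so the loss there says nothing of Sgms1. Between the 2 siRNAs of a target Sgms1 did not pass in any of the 3 targets, with log2 differences of -0.13 to 0.00.

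**Figure D2:**
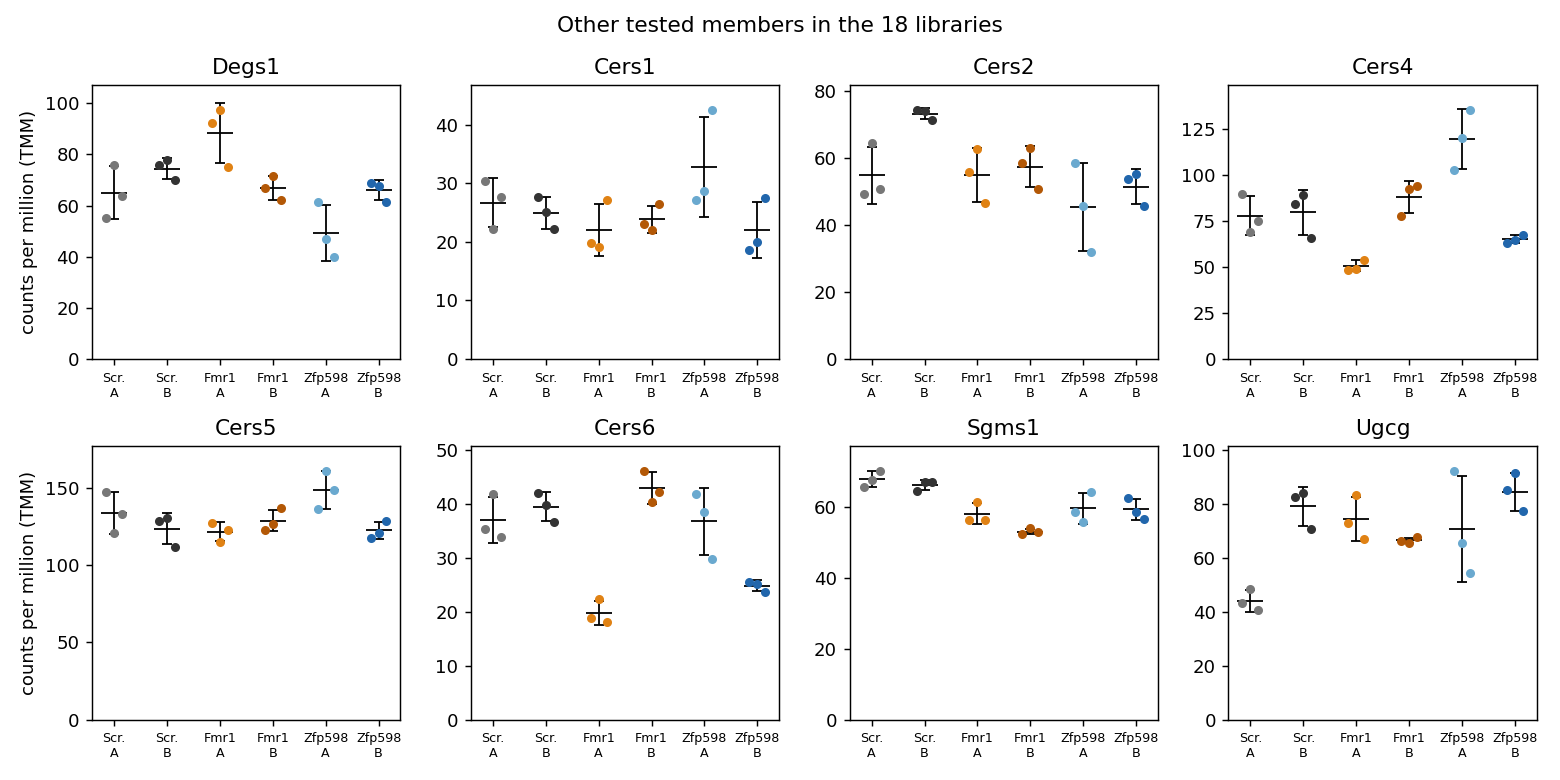
CPM (vertical axes, from 0, scaled to the library size with TMM) of the 8 tested members other than Fa2h in each library, grouped by siRNA. Points are libraries and dashes with bars are means ± 1 SD (n = 3), and Scr. stands for Scramble. Cers4 and Cers6 are lowest with Fmr1 siRNA A, at 48.7 to 54.1 and 18.1 to 22.3 CPM, whereas Ugcg is lowest with Scramble siRNA A, at 40.6 to 48.6 CPM.

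Single siRNAs moved Cers4 and Cers6 further than the pooled values show. Against the Scramble siRNA of the same letter, 5 of the 8 members passed with Fmr1 siRNA A (Cers4, Cers6 and Sgms1 lower, Degs1 and Ugcg higher) and 1 with Fmr1 siRNA B (Sgms1, lower). With Zfp598 siRNA A 2 passed (Cers4 and Ugcg, both higher), and with Zfp598 siRNA B another pair did (Cers2 and Cers6, both lower). Of all genes tested, 23.6% passed with Fmr1 siRNA A (10.0% higher and 13.6% lower) and 22.7% with Fmr1 siRNA B (11.3% higher and 11.3% lower). For Zfp598 siRNA A the share was 11.9% (6.30% higher and 5.64% lower), and for Zfp598 siRNA B it was 26.8% (12.4% higher and 14.4% lower). The counts moved with single libraries, to 3 with Fmr1 siRNA A without Fmr1 siRNA A replicate 1 or Scramble siRNA A replicate 1 or 3, to 2 with Fmr1 siRNA B without Zfp598 siRNA A replicate 1 or 3, to 4 with Zfp598 siRNA A without its replicate 1 (when 25.9% of all genes passed), and to 1 with Zfp598 siRNA B without Scramble siRNA B replicate 1 or 2 or Zfp598 siRNA B replicate 3. Among the 8, no gene passed with all 4 siRNAs.

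Cers6, a palmitate-preferring ceramide synthase, had 35.3, 41.8 and 33.9 CPM with Scramble siRNA A and 42.1, 39.8 and 36.6 CPM with Scramble siRNA B. Fmr1 siRNA A brought it to 18.9, 22.3 and 18.1 CPM, below every other library of the series. Fmr1 siRNA B left it at 46.2, 40.4 and 42.3 CPM, at or above most Scramble libraries. With Zfp598 siRNA A it was 42.0, 38.6 and 29.9 CPM, and with Zfp598 siRNA B 25.6, 25.2 and 23.7 CPM, again below every Scramble library. These separations are a description, since the share of all genes that show one was not counted. The fall was 1.87-fold with Fmr1 siRNA A (log2 -0.90, SE 0.121, adjusted p = 1.36e-05 by edgeR's quasi-likelihood test) and 1.59-fold with Zfp598 siRNA B (log2 -0.67, SE 0.119, adjusted p = 0.000296, the same edgeR test). One siRNA of each target therefore lowered Cers6, and it was siRNA A for Fmr1 and siRNA B for Zfp598.

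That difference within a target was itself tested. Cers6 was higher with Fmr1 siRNA B than with Fmr1 siRNA A by 1.12 on the log2 scale (SE 0.120, adjusted p = 1.02e-06) and for the Zfp598 siRNAs the same difference was -0.58 (SE 0.122, adjusted p = 0.00105, both by edgeR's quasi-likelihood test). The Scramble siRNAs differed by 0.09, which did not pass. The KD effect differed between siRNAs by 1.02 in the Fmr1 arm (adjusted p = 0.00014) and by -0.68 in the Zfp598 arm (adjusted p = 0.0066, edgeR's interaction test).

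Cers4, a synthase of intermediate chain length, went the same way with Fmr1 siRNA A and took a different course with Zfp598 siRNA A. It had 89.7, 68.9 and 75.2 CPM with Scramble siRNA A and 84.3, 89.3 and 65.8 CPM with Scramble siRNA B. Fmr1 siRNA A gave 48.7, 49.1 and 54.1 CPM, the lowest of all groups. Zfp598 siRNA A gave 103, 120.2 and 136 CPM, the highest, and no library of any other siRNA reached these levels. Fmr1 siRNA B (78.0, 92.5 and 94.1 CPM) and Zfp598 siRNA B (63.2, 65.0 and 67.5 CPM) lay between. The log2 fold change was -0.62 with Fmr1 siRNA A (SE 0.123, adjusted p = 0.000863) and 0.61 with Zfp598 siRNA A (SE 0.122, adjusted p = 0.00254, both by edgeR's quasi-likelihood test). Without Zfp598 siRNA A replicates 2 and 3, in which the most counted feature took 15.2% and 25.8% of the counts, the latter value was 0.39 and did not pass, from 1 library whose spread is assumed to be that of the other groups. The siRNAs of a target differed by 0.80 for Fmr1 (siRNA B higher, adjusted p = 5.81e-05) and by -0.87 for Zfp598 (siRNA B lower, adjusted p = 2.51e-05, edgeR's quasi-likelihood test).

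**Figure D3:**
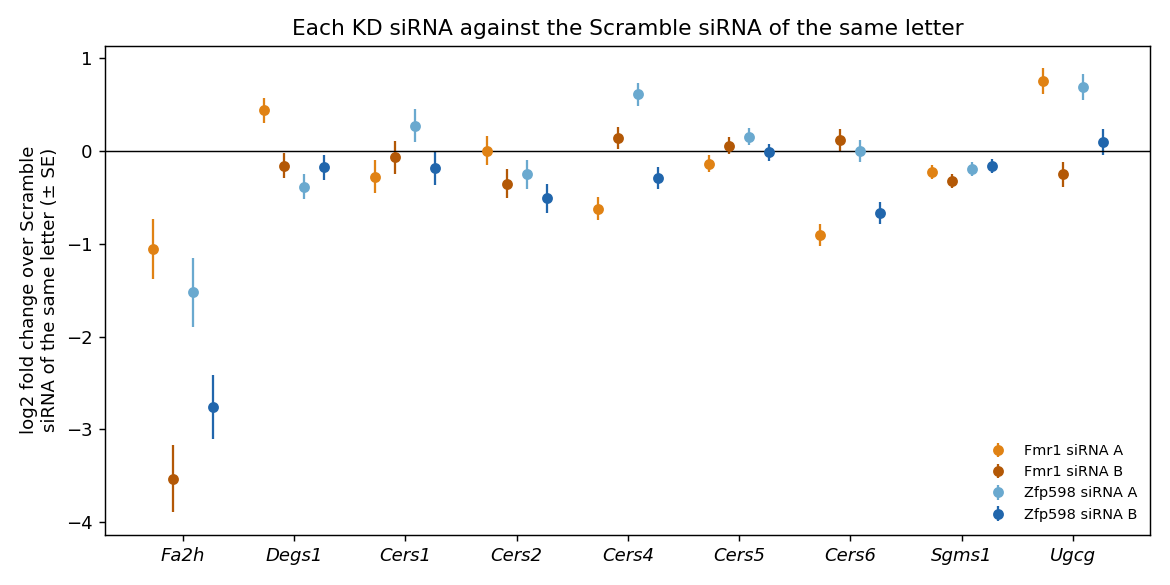
Log2 fold change (vertical axis, bars ± 1 SE) of the 9 tested members for each KD siRNA against the Scramble siRNA of the same letter, with 3 libraries in each group. Fa2h is below 0 with all 4 siRNAs, from -1.06 to -3.53, and Cers6 falls with Fmr1 siRNA A (-0.90) and Zfp598 siRNA B (-0.67).

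Ugcg, the glucosylceramide synthase gene, stood apart in one control arm. It had 43.3, 48.6 and 40.6 CPM with Scramble siRNA A and 82.5, 84.1 and 70.8 CPM with Scramble siRNA B. The remaining groups were at 73.1, 83.5 and 67.3 (Fmr1 A), 66.5, 65.7 and 67.7 (Fmr1 B), 92.5, 65.5 and 54.4 (Zfp598 A) and 85.2, 91.5 and 77.4 CPM (Zfp598 B). Every library of the other 5 siRNAs was above all 3 libraries of Scramble siRNA A. The Scramble siRNAs differed by 0.84 on the log2 scale (SE 0.139, adjusted p = 0.000163 by edgeR's quasi-likelihood test), and Ugcg was the single member of the 8 that passed there, where 22.7% of all genes tested did (10.4% higher and 12.2% lower with siRNA B). That count was 2 without Scramble siRNA A replicate 2 or Zfp598 siRNA A replicate 1 or 3. Against Scramble siRNA A it was higher with Fmr1 siRNA A (log2 0.76, adjusted p = 0.000408) and Zfp598 siRNA A (0.69, adjusted p = 0.00295, both by edgeR's quasi-likelihood test). Against all 6 Scramble libraries, the Zfp598 siRNA A value was 0.27 (adjusted p = 0.115, the same edgeR test). Neither the Fmr1 nor the Zfp598 siRNAs differed from each other in Ugcg beyond the threshold (-0.16 and 0.24).

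Degs1, which encodes the desaturase that completes ceramide, was high with Fmr1 siRNA A and low with Zfp598 siRNA A. Its level was 55.2, 75.9 and 63.9 CPM with Scramble siRNA A and 75.8, 77.6 and 70.0 CPM with Scramble siRNA B. Fmr1 siRNA A gave 92.4, 97.4 and 75.2 CPM and Fmr1 siRNA B 66.7, 71.7 and 62.1 CPM. Zfp598 siRNA A gave 61.4, 46.8 and 39.8 CPM and Zfp598 siRNA B 69.0, 67.6 and 61.4 CPM. The rise with Fmr1 siRNA A was 1.36-fold (log2 0.44, SE 0.133, adjusted p = 0.0197 by edgeR's quasi-likelihood test). It was lost without any one of Fmr1 siRNA A replicates 1 and 2 or Scramble siRNA A replicates 1 and 3. With Zfp598 siRNA A the value was -0.38 (adjusted p = 0.0736, edgeR's quasi-likelihood test). The siRNAs differed in opposite directions, by -0.40 for Fmr1 (adjusted p = 0.0305) and by 0.40 for Zfp598 (adjusted p = 0.0276, both by edgeR's quasi-likelihood test), and both calls were narrow. The Fmr1 call was lost without any one of Fmr1 siRNA A replicates 1 and 2 or siRNA B replicates 1 and 3, and the Zfp598 call without any one of Zfp598 siRNA A replicates 2 and 3 or siRNA B replicates 1 and 2.

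Cers2, the synthase of very long chain ceramides, was highest with Scramble siRNA B, at 74.4, 74.0 and 71.3 CPM, which lay above every other library. Scramble siRNA A gave 49.2, 64.5 and 50.6 CPM. The 12 KD libraries lay between 32.0 and 62.9 CPM, with the lowest in Zfp598 siRNA A replicate 3. Zfp598 siRNA B, at 53.6, 55.2 and 45.6 CPM, was 1.42-fold lower than Scramble siRNA B (log2 -0.51, SE 0.155, adjusted p = 0.0194 by edgeR's quasi-likelihood test). Against all 6 Scramble libraries this was -0.30 (adjusted p = 0.104, the same edgeR test). It was also lost without any one of Scramble siRNA B replicates 1 and 2 or Zfp598 siRNA B replicate 3.

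Cers5 and Cers1 were the members that passed with neither KD and no single KD siRNA. Cers5 ranged from 112 to 148 CPM in Scramble KD, 115 to 137 in Fmr1 KD and, in Zfp598 KD, 118 to 161. Cers1 ranged from 22.1 to 30.3, 19.1 to 27.2 and 18.6 to 42.5 CPM, with the last value in Zfp598 siRNA A replicate 3. All 3 ranges overlapped for both genes, and neither passed against Scramble KD. Between the Zfp598 siRNAs both were lower with B, Cers1 by a log2 value of -0.55 (adjusted p = 0.0235) and Cers5 by -0.28 (adjusted p = 0.0203, edgeR's quasi-likelihood test). Without Zfp598 siRNA A replicates 2 and 3 these values were -0.29 and -0.14 and did not pass, again with 1 library left in that arm. Cers1 was also lost without any one of Zfp598 siRNA A replicate 3 or Zfp598 siRNA B replicates 1 and 2, and Cers5 without Zfp598 siRNA A replicate 2 or Zfp598 siRNA B replicates 1 and 2.

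Counted over the 8 members, the direct comparison of the 2 siRNAs of a target gave 1 gene that passed for Scramble (Ugcg), 3 for Fmr1 (Cers4 and Cers6 higher with siRNA B, Degs1 lower) and 5 for Zfp598 (Cers1, Cers4, Cers5 and Cers6 lower with siRNA B, Degs1 higher). Of all genes tested, 24.3% passed between the Fmr1 siRNAs (13.3% higher and 11.1% lower with B) and 35.3% between the Zfp598 siRNAs (15.6% higher and 19.7% lower with B). For Zfp598 the count was 2 without siRNA A replicates 2 and 3 together (1 library left, when 16.1% of all genes passed), 3 without either of them, and 2 without siRNA B replicate 1 or 2. The KD effect differed between siRNAs for 4 members in the Fmr1 arm (Cers4, Cers6, Degs1 and Ugcg) and 3 in the Zfp598 arm (Cers4, Cers6 and Ugcg), where 21.8% of all genes (12.2% higher and 9.65% lower) and 21.9% (10.1% higher and 11.9% lower) did. Of these, Degs1 was lost without any one of 8 libraries and Ugcg in the Zfp598 arm without any one of 7. Cers4, Cers6 and Degs1 had opposite signs in the Fmr1 and the Zfp598 comparison of siRNAs, so these differences did not follow the letter. Proliferation markers were higher with siRNA B for Scramble and Fmr1, and only in part for Zfp598, where the summed ranges of the 2 siRNAs overlapped. Of the 16, siRNA B gave higher levels than siRNA A in 16 for Scramble, 15 for Fmr1 and 8 for Zfp598 (where 1 was lower), by edgeR's quasi-likelihood test. They had summed levels of 1046 to 1178, 989 to 1050 and 1439 to 1623 CPM for siRNA A of Scramble, Fmr1 and Zfp598 and of 2056 to 2345, 1764 to 1892 and 1531 to 1618 CPM for siRNA B. The part of these genes in the values of the members was not tested.

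**Figure D4:**
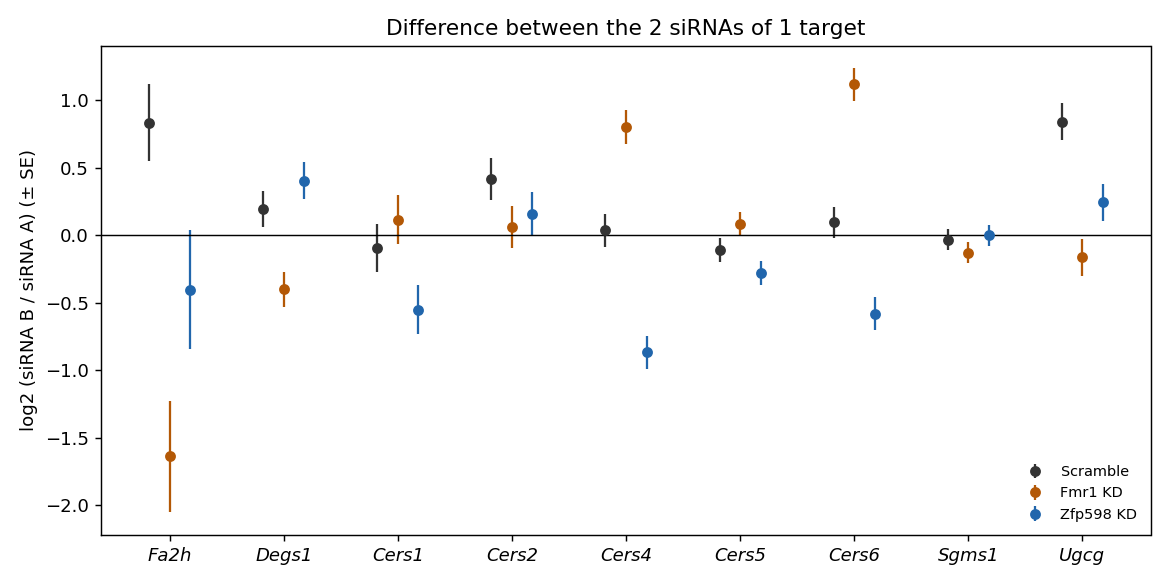
Log2 difference between siRNA B and siRNA A of the same target (vertical axis, bars ± 1 SE, 3 libraries in each group) for the 9 tested members. Cers6 stands at 1.12 for Fmr1, -0.58 for Zfp598 and 0.09 for Scramble, and Fa2h at -1.64, -0.41 and 0.83.

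Ugt8a, the galactosylceramide synthase gene, had 0 counts in 17 of the 18 libraries. A count of 0 allows up to 3 counts, which corresponds to 0.192 to 0.534 CPM depending on the library and covers counting error only. The one library with counts was Fmr1 siRNA B replicate 1, with 7 counts (0.472 CPM). That was the library with the pluripotency markers, and it also had the highest levels of the myelin genes Mog (3.57 CPM) and Mobp (0.809 CPM). Fa2h in the same library, at 0.675 CPM, was the highest of the 3 Fmr1 siRNA B libraries and below all 6 Scramble libraries. Without it, the log2 difference of Fa2h between the Fmr1 siRNAs still passed.

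Around the members, the pathway was read from 7 lists that together hold 73 genes, of which 65 were tested. Fa2h is in none of these lists. Leaving the members aside, 57 genes were tested, and 7 passed in Fmr1 KD (2 higher and 5 lower) and 1 in Zfp598 KD (lower), which is 12.3% and 1.75% of the 57, against 6.54% and 1.96% of all genes. Their median log2 fold change was -0.03 in Fmr1 KD and -0.05 in Zfp598 KD. None of the 7 tested genes of serine palmitoyltransferase and its regulators, which start the pathway, passed in either KD.

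Several of those that passed act next to the members. Samd8, a relative of Sgms1 that makes the ethanolamine analogue of sphingomyelin, fell from a median of 243.8 CPM (190.1 to 264.6) in Scramble KD to 141.3 CPM (106.1 to 199.6) in Fmr1 KD (log2 -0.69, SE 0.140, adjusted p = 0.00536 by edgeR's quasi-likelihood test). The ranges overlapped at one end, and the change was -1.22 with Fmr1 siRNA B and -0.23 with siRNA A, which did not pass alone. By edgeR's interaction test the 2 siRNAs differed (adjusted p = 1.82e-05). Plekha8, which encodes the glucosylceramide transfer protein FAPP2, was the one list gene that fell in both KDs, from a median of 57.4 CPM (51.5 to 60.2) to 39.0 CPM (34.1 to 52.6) in Fmr1 KD (log2 -0.47, adjusted p = 0.0185) and 37.0 CPM (29.9 to 45.3) in Zfp598 KD (-0.59, adjusted p = 0.0154, edgeR's quasi-likelihood test). Downstream of glucosylceramide, B4galt5 (lactosylceramide synthesis, log2 0.61, adjusted p = 0.0173) and A4galt (globoside synthesis, 0.72, adjusted p = 0.0339) rose in Fmr1 KD by edgeR's quasi-likelihood test. Plekha8 stood at -0.73 with Fmr1 siRNA A and -0.25 with siRNA B, and B4galt5 at 0.85 and 0.32, and in both genes the siRNA B value did not pass alone and the siRNAs differed (adjusted p = 0.0175 and 0.0317, edgeR's interaction test). A4galt passed with both, at 0.65 and 0.85, each against the Scramble siRNA of the same letter.

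A4galt also differed between the Scramble siRNAs, by -0.92 (siRNA B lower). Acer2, an alkaline ceramidase of the Golgi, fell in Fmr1 KD (log2 -0.88, SE 0.182, adjusted p = 0.00615 by edgeR's quasi-likelihood test), from 3.25 to 4.54 CPM in Scramble KD to 1.54 to 2.63 CPM. Its log2 value in Zfp598 KD was -0.62 (adjusted p = 0.0813, the same edgeR test). Glb1, the lysosomal beta-galactosidase, also fell in Fmr1 KD (log2 -0.34, adjusted p = 0.0205), as did Elovl7, a fatty acid elongase (log2 -0.31, adjusted p = 0.0498, both by edgeR's quasi-likelihood test). Elovl7 stood at 0.28 in Zfp598 KD (adjusted p = 0.116, edgeR's quasi-likelihood test). Acer2 and Glb1 passed with both Fmr1 siRNAs. Elovl7 passed with Fmr1 siRNA A (-0.43, adjusted p = 0.00364) and not with siRNA B (-0.18, adjusted p = 0.216, both by edgeR's quasi-likelihood test). The 7 calls in Fmr1 KD dropped to 4 without Fmr1 siRNA A replicate 1 or 3 (when 4.07% and 4.05% of all genes passed). The 1 call in Zfp598 KD became 7 without Zfp598 siRNA A replicate 1 (when 4.88% of all genes passed) and 3 without Scramble siRNA A replicate 1.

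**Figure D5:**
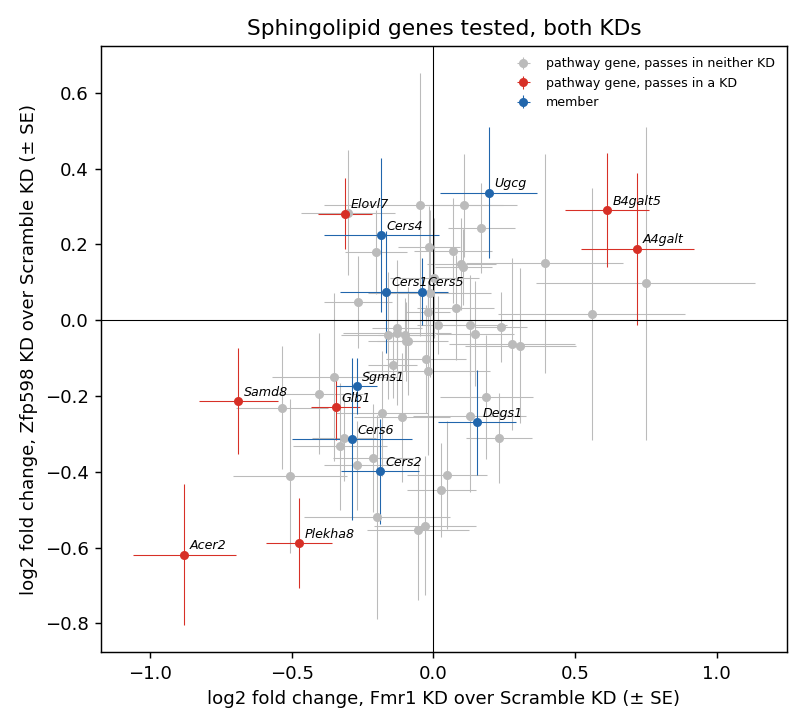
Log2 fold change in Fmr1 KD (horizontal axis) against that in Zfp598 KD (vertical axis), with bars of ± 1 SE, for the sphingolipid genes tested. Both axes use the same 6 Scramble libraries, and Fa2h, at -2.14 and -2.20, is in none of the pathway lists and is not drawn. Members are blue, other genes that passed in a KD are red, and genes that passed in neither are grey.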

How the data were processed

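Gene-level read counts of 18 N2A libraries were analysed, 3 for each of 6 siRNAs. The counts were deposited by the authors as whole numbers per Ensembl gene, without normalization. Their processing notes and methods name Trim Galore, FastQC, STAR against GRCm39, deepTools, featureCounts and DESeq2. The annotation release, strand setting and treatment of multi-mapping reads were not given in the sources used here. Samples were grouped by the siRNA in their labels. Symbols, positions and exon lengths came from the GENCODE annotation of GRCm39, which lists 54749 of the 55414 features (98.8%).

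Genes were kept by edgeR's filterByExpr (minimum count 10), scaled by TMM and tested with edgeR's quasi-likelihood test (edgeR 4.0.16, limma 3.58.1, R 4.3.3), tested on simulated data first. Pooled KDs were compared in a model of condition over 18 libraries, and single siRNAs in a model of 6 groups. P-values were adjusted by Benjamini-Hochberg over all 17901 genes tested, and a gene passed at an adjusted p under 0.05. Pearson coefficients used log2 CPM with a prior count of 2. Alternatives were DESeq2 1.42.0, RLE scaling, no filter, a replicate block, the siRNA letter as a term, counts summed per siRNA, removal of the most counted feature, and libraries left out. The members, pathway lists and marker lists were chosen with earlier results of these data known.

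Genes named are the members, list genes that passed in a pooled KD, the siRNA targets, tested genes within 200 kb of Fa2h and the 5 with the highest and lowest Pearson r with it. Markers and Gdf1 were named after their values were seen. Depth was 7674724 to 15414590 counts per library, so 3 counts correspond to 0.192 to 0.534 CPM. Reads carried no molecular identifiers as far as stated, so this floor covers counting error only. No 2 libraries of an siRNA agreed within sampling noise (the smallest chi-square divided by its degrees of freedom was 2.76). One marker, and the summed list that holds it, is not reported here.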

Additional observations from a re-analysis of the deposited data

Results flagged for a closer look

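The effect of a KD differed between the 2 siRNAs of a target, each set against the Scramble siRNA of the same letter, in 8 cases by edgeR's interaction test. In the Fmr1 arm the effect with siRNA B minus that with siRNA A was -2.47 for Fa2h, 0.76 for Cers4, 1.02 for Cers6, -0.60 for Degs1 and -1.004 for Ugcg on the log2 scale. In the Zfp598 arm it was -0.90 for Cers4, -0.68 for Cers6 and -0.60 for Ugcg. The values rest on which Scramble siRNA is paired with which KD siRNA, and the Scramble siRNAs alone differed by 0.83 for Fa2h and 0.84 for Ugcg. For Cers4 and Cers6 the Scramble siRNAs differed by 0.04 and 0.09, so most of the difference in these genes lay between the KD siRNAs.

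Ugt8a was at 0.472 CPM in Fmr1 siRNA B replicate 1 and at 0 in the other 5 Fmr1 KD libraries, which set this library apart from its group by Dixon's criterion. With the others at 0, any count would have done so. Of 30 groups looked at, 2 of them with Ugt8a at 0 throughout, this was the 1 that stood out, and chance alone gives about 1 in 20.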

How the results depend on the processing

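No value of Fa2h against Scramble KD changed direction or moved by more than 1 SD under any alternative. This SD is that of its log2 CPM over the 6 Scramble libraries. It includes the difference between the Scramble siRNAs and is therefore a wide limit. Since Fa2h was chosen on this comparison, this is a description only. The counts below are of the 8 other tested members. In Fmr1 KD the count of 1 became 0 with a change of more than 2-fold required, without the filter on low counts and with the replicate block. It also became 0 with counts summed per siRNA, where no gene passed. Of all genes, 1.00%, 2.39%, 4.79% and 0.00% passed in these settings, in that order, against 6.54% in the main fit. Without the filter the count became 2 for Fmr1 siRNA B and for Scramble siRNA B against A. Of the 37275 genes then tested, 11.7% and 10.9% passed. DESeq2 gave 1 in place of 0 between the KDs (8.29% of all genes, against 5.39%). It gave 2 in place of 1 between the Scramble siRNAs (23.9%, against 22.7%), and the 6 Scramble libraries alone also gave 2 (23.4%). Leaving out Zfp598 siRNA A replicates 2 and 3 together left 1 library in that group, so the counts of that setting are not compared here. The same setting turned the Zfp598 KD values of Cers1 (-0.14), Cers4 (-0.074) and Cers5 (-0.025) and the difference of Fa2h between the Zfp598 siRNAs (0.15). The small Cers6 difference between the KDs turned to -0.026 with the siRNA letter as a term and to -0.022 with summed counts.

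With each library left out in turn, the count ranged from 0 to 1 in Fmr1 KD, 3 to 5 with Fmr1 siRNA A, 1 to 2 with Fmr1 siRNA B, 2 to 4 with Zfp598 siRNA A, 1 to 3 with Zfp598 siRNA B, 1 to 2 between the Scramble siRNAs and 2 to 7 between the Zfp598 siRNAs. Values that turned sign ranged from -0.073 to 0.0068 (Cers5, Fmr1 KD), -0.082 to 0.16 (Cers1, Zfp598 KD), -0.27 to 0.24 (Fa2h, between the KDs) and -0.11 to 0.15 (Cers6, between the KDs). For the pathway lists without the members, with alternatives chosen after seeing the data, the count of 7 in Fmr1 KD ranged from 4 to 8 and the count of 1 in Zfp598 KD from 1 to 7. Summed counts gave 0 in both, where 0.00% of all genes passed. In Zfp598 KD DESeq2 gave 5 and the siRNA letter as a term gave 3, where 5.80% and 4.41% of all genes passed. Leaving out Zfp598 siRNA A replicates 2 and 3 gave 3 (6.86% of all genes). The main fit had 1.96% of all genes. With the longest transcript as length, Cers1, Cers6 and Sgms1 took ranks 7, 8 and 5. The share of all genes that passed also moved with the library left out, for example from 6.54% to 4.07% in Fmr1 KD without Fmr1 siRNA A replicate 1. The cause of these changes was not tested.

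The replicate numbers were not taken to pair the libraries, since the labels do not say what the numbers stand for. The values below do not settle whether they pair them, so the replicate block is given beside the main fit. Deviations of libraries with the same number had a mean correlation of 0.043 (-0.34 to 0.29 over 45 pairs), against -0.021 for different numbers, while 12 of 18 libraries were closest to their own number, a hint that some may share more than a number. With the replicate block the count was 0 in Fmr1 KD, where Sgms1 had an adjusted p of 0.0504 by edgeR's test. The count was 2 for Fmr1 siRNA B and 2 between the Scramble siRNAs. Of all genes, 4.79%, 24.0% and 24.3% passed in these comparisons, in the same order. Depth left Ugt8a untested and limits Fa2h, at 5 to 28 counts per KD library.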
